A study of Caenorhabditis elegans with 3 samples.

Results

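LET-418 occupancy on the X chromosome of Caenorhabditis elegans is described here from the peak lists of a ChIP-seq experiment in L3 larvae. The peaks were taken by position alone: every peak of the authors' combined list that lies on X was a member, and no score was used. This gave 1780 of the 9187 combined peaks. X was cut at positions 6137000 and 12480000 (WormBase WS220) by peak midpoint, which put 601 peaks in the left part, 603 in the centre and 576 in the right part. The same cuts put 3063 of 16140 peaks of replicate 1 and 1913 of 9817 peaks of replicate 2 on X.

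The animals were wild-type worms of strain N2, grown at 20 °C in liquid culture to the third larval stage as a mixed male and hermaphrodite population. The ChIP group holds 2 replicates made with an affinity-purified rabbit polyclonal antibody raised against part of LET-418, and the control group is 1 input DNA library, which was not used here. Nothing in the labels ties the ChIP replicates to separate cultures, so the spread between them may be technical. Chromatin came from whole larvae, so a peak cannot be given to a tissue. Males carry a single X and hermaphrodites a pair, the share of males is not given, and its part in the results was not tested.

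LET-418 is the worm Mi-2, an ATPase that moves nucleosomes, and it works in the NuRD complex with histone deacetylases and in the MEC complex with the zinc finger protein MEP-1. It is known for keeping germline genes off in somatic cells and for restraining vulval fates, which are set during the larval stages. The X of the worm differs from the autosomes in that a condensin-like dosage compensation complex binds it in hermaphrodites, and in that it is largely silent in the germline. Worm autosomes have gene-dense, rarely recombining centres between arms rich in repeats and heterochromatin, a contrast that is weaker on X.

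Each list held the authors' peaks with a start, an end and a score whose scale is not stated. No peak carries a read count, and the depth behind it is unknown. Chromosomes are compared as X beside the 5 autosomes, which were cut at the same fractions of their length. Because X is 1 chromosome of 6, an exact permutation test over chromosomes could not go below p = 0.167, and none was run: "above" or "below all autosomes" states a rank. Intervals are at 95% and cover counting error only. They are too narrow, since neighbouring peaks are not independent.

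LET-418 peaks were spread over X more evenly than over most autosomes, with somewhat more in the right part. The combined list held 97.9 peaks per Mb in the left part (exact Poisson interval 90.3 to 106), 95.1 in the centre (87.6 to 103) and 110.0 in the right part (101 to 119). The densest of these parts exceeded the sparsest by 1.16 times on X, against 1.19 on I, 1.26 on II, 1.50 on V, 1.76 on III and 2.03 on IV. The low value of X held in the replicate 2 list (1.18, against 1.34 to 2.08 on the autosomes) but not in the replicate 1 list, where X at 1.30 lay within the autosome range of 1.16 to 2.09.

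The right part of X was denser than its centre in all 3 lists. The ratio of the right part to the centre was 1.16 in the combined list, 1.30 in replicate 1 and 1.18 in replicate 2. Autosomes gave 0.683 to 1.03 in the combined list, 0.748 to 1.32 in replicate 1 and 0.584 to 0.898 in replicate 2. Among right parts, X was thus first of the 6 chromosomes in the combined list and in replicate 2, and second, after I, in replicate 1. The sides of different chromosomes were not matched, and the left parts of III and IV exceeded their centres by more (1.58 and 1.39, combined list). For both outer parts over the centre, X lay inside the autosome range in the combined list (1.09, against 0.738 to 1.27). The same held in replicate 1 (1.20, against 0.898 to 1.42), but in replicate 2 X was above it (1.11, against 0.638 to 1.08). On X the ratio of the left part to the centre was closer to 1. It was 1.03 in the combined list, 1.12 in replicate 1 and 1.05 in replicate 2. It was 0.994 among peaks present in both replicates, 0.974 for covered bases and 0.983 with 3 equal parts, so no direction is given for it. Over the whole chromosome X held 100.5 peaks per Mb, fewer than III and I and more than II, IV and V, and 1.12 times the density of the autosomes together. That ratio was 0.996 when only peaks scoring at least the list median were kept.

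**Figure D1:**
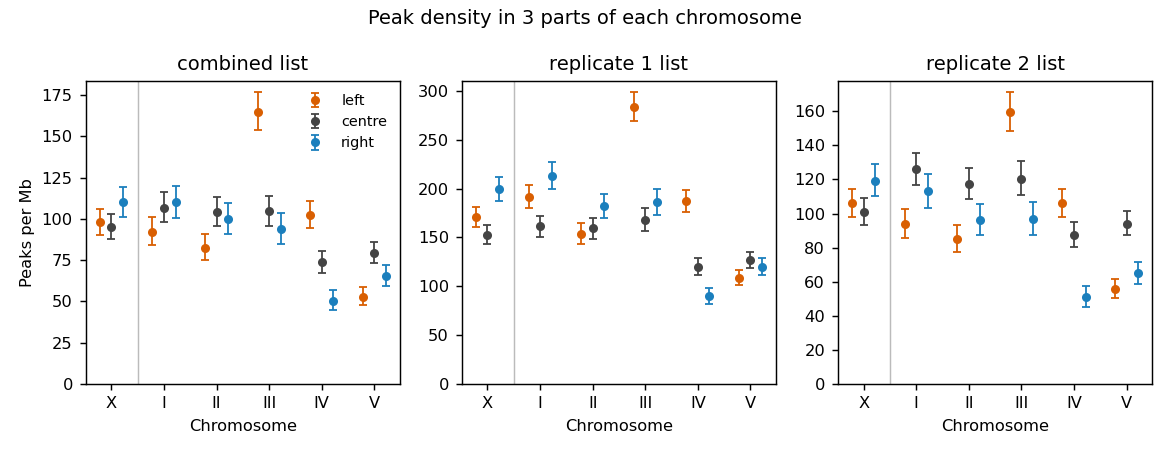
Peaks per Mb in the left part, centre and right part of X and of each autosome, for the combined list and each replicate list, with exact Poisson intervals that cover counting error only. The 3 parts of X lie close together in the combined list, at 97.9, 95.1 and 110.0 per Mb, while those of IV lie furthest apart, by 2.03 times.

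In 18 equal bins of 984 kb, X had no bin without LET-418 sites, and nor had any autosome in bins of about 1 Mb. The lowest bin, from 984142 to 1968282 in the left part, held 60 combined peaks (61.0 per Mb), 105 of replicate 1 and 64 of replicate 2, and was the lowest in each list. The highest count, 133 combined peaks (135 per Mb), was reached both from 3936566 to 4920706 in the left part and from 14762120 to 15746260 in the right part. These bins held 219 and 226 replicate 1 peaks and 140 and 125 replicate 2 peaks. In both replicates, however, the highest bin was that from 12793837 to 13777977, just beyond the right cut, with 230 peaks in replicate 1 and 153 in replicate 2, and with 131 in the combined list.

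A dip also stood in the middle of X. The bin from 8857272 to 9841412 held 64 combined peaks, against 100 in the bin before it and 114 in the bin after it. It held 126 replicate 1 peaks and 71 replicate 2 peaks, and was the second lowest bin of X in each list. The coefficient of variation over the bins was 0.229 on X and 0.260 to 0.474 on the autosomes. It was also below all autosomes in replicate 1 (0.206, against 0.215 to 0.415) and in replicate 2 (0.224, against 0.240 to 0.473), in each case with II next. The ratio of the highest to the lowest bin was 2.22 on X and 2.38 to 17.3 on the autosomes in the combined list, while in both replicate lists X lay just above II.

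**Figure D2:**
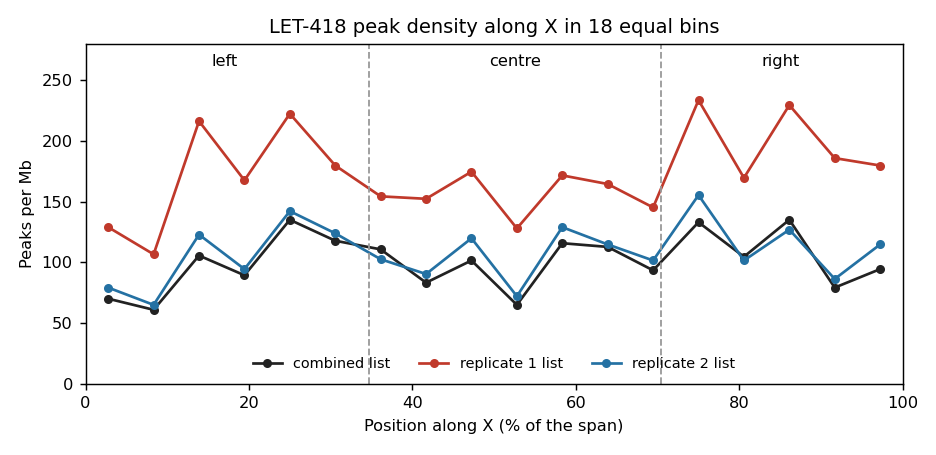
Peaks per Mb in 18 equal bins along X for the combined list and each replicate list, with the position as a percentage of the span and the cuts between the parts as dashed lines. The bins of the combined list lie between 61.0 and 135 per Mb, and the low second bin and the dip in the middle appear in all 3 lists.

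Most X peaks were narrow. Their median width was 231 bp in the combined list (the middle 50% ran from 180 to 333 bp). The replicate 1 list gave 234 bp and the replicate 2 list 254 bp. Autosomes had medians of 222 to 233 bp in the combined list, 221 to 229 bp in replicate 1 and 245 to 252 bp in replicate 2, so X was above all autosomes by a few bp in each replicate list, but not in the combined list. The left part of X had the largest median width, at 242 bp, against 228 bp in the centre and 224 bp in the right part. The upper quartile was largest in the centre, at 352.5 bp, against 339 bp in the left part and 315 bp in the right part. This was also so in replicate 1 (367.75 bp, against 359 and 329 bp) and in replicate 2 (417.5 bp, against 381 and 373 bp). The left part of X was also wider at the median than the left part of any autosome in all 3 lists. It had 238 bp against 212 to 229 bp in replicate 1 and 258 bp against 227 to 249 bp in replicate 2. Other parts of autosomes were wider still in 2 of the lists. These were the centre of II in the combined list (244 bp) and in replicate 2 (267 bp), and the right part of III in replicate 2 (267 bp). In replicate 1 no part of an autosome exceeded 237 bp.

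Very wide peaks were few. Of the X peaks, 30 were wider than 1 kb (1.69%, 1.18 to 2.40% by Wilson's method). The share was 2.05% over all chromosomes and 1.75 to 2.46% by autosome. They made up 2.16% of the centre of X, 1.50% of its left part and 1.39% of its right part, differences that lie within the counting intervals. In replicate 1 X had again the lowest share (2.19%, against 2.34 to 2.59%), but in replicate 2 it lay inside the autosome range (4.23%, against 3.31 to 4.40%). Peaks covered 3.00% of X in the combined list, 5.39% in replicate 1 and 3.85% in replicate 2.

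The 5 widest combined peaks of X were each found in both replicates. The widest ran from 6739443 to 6742079 (2637 bp) in the centre, under a single peak of 3670 bp in replicate 1 and of 3788 bp in replicate 2. Its combined score was 1.47, below the lower quartile of X peaks (2.73), so this widest call was not a high-scoring one in the combined list. The replicate peaks of its joined region had median scores of 12.23 in replicate 1 and 10.58 in replicate 2. All X peaks had medians of 6.46 and 4.82 in these lists. The next widest combined peak, from 12171291 to 12173510 (2220 bp), scored 8.66. It had nearly the same width in the replicates, 2239 bp and 2449 bp. The other peaks of this group ran from 11472097 to 11474094 (1998 bp), from 7232042 to 7233987 (1946 bp) and from 188330 to 190135 (1806 bp). That at 188330 was the only one of the 5 with no neighbour within 1 kb, and it stood at the ceiling of the combined score, 9.03, which several peaks share.

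Distances between X peaks were in the range of the autosomes at the median. The median distance between neighbouring midpoints was 1639 bp in the combined list, with quartiles of 642 and 10156 bp. It was 1451 bp in replicate 1 and 1619 bp in replicate 2. Autosomes had 1354 to 1870 bp in the combined list, and X lay inside their range in each list. Of the distances on X, 38.8% were under 1 kb and 25.2% over 10 kb, against 39.5% and 24.8% on the autosomes together. In the replicates the share under 1 kb on X was below all autosomes, at 38.5% against 39.1 to 45.1% in replicate 1 and 36.8% against 37.1 to 40.4% in replicate 2. The centre had the shorter median, 1444 bp, against 1720 bp in the left part and 1726 bp in the right part, although its density was no higher. This order did not hold in the replicates, where the centre had 1463 bp against 1467 bp and 1383 bp in replicate 1 and 1691 bp against 1607 bp and 1538 bp in replicate 2. The median was 0.138 of the mean distance in the centre, 0.168 in the left part and 0.192 in the right part, so that combined peaks in the centre were the more bunched for their mean distance. In replicate 1 that order was the same (0.225, 0.251 and 0.276), while in replicate 2 the centre (0.171) and the left part (0.170) were alike.

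Joining peaks with less than 1 kb between their edges gave 359 regions of several peaks on X, and 609 peaks stood alone. The regions held 1171 of the 1780 X peaks (65.8%, 63.6 to 68.0%), a share near the 66.2% of all combined peaks and inside the autosome range of 62.8 to 69.6%. X held 191 regions of 2 peaks, 114 of 3 to 4, 42 of 5 to 9 and 12 of 10 or more. The median length of a region was 1284 bp on X and 1309 bp on the autosomes.

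As a share of its peaks, X ranked low in regions of 5 to 9 peaks and second in regions of 10 or more. Regions of 5 or more peaks held 411 X peaks (23.1%, interval 21.2 to 25.1%), against 25.7% of all combined peaks and 23.1 to 28.6% by autosome, where V was level with X. Regions of 5 to 9 held 14.3% of X peaks, against 14.1 to 21.6% by autosome. Per Mb they stood at 2.37 on X, inside the autosome range of 1.44 to 4.28. Regions of 10 or more stood at 0.677 per Mb on X, more than the 0.401 to 0.581 per Mb of the autosomes. That rank rests on few regions, 12 on X and 7 to 9 by autosome. It comes from the combined list and was not computed for the replicate lists. As a share of peaks they held 8.82% on X, below the 9.06% of V and above the other autosomes (5.11 to 8.10%).

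The large regions of X lay mainly in its centre, which held 8 of the 12 regions of 10 or more peaks, against 3 in the left part and 1 in the right part. Autosome centres together held 22 of 39 such regions, with 6 of 8 on II, 5 of 7 on I and 5 of 9 on V. On IV the centre held 3 of 7, and on III 3 of 8, against 4 in the left part of III. As a share of the peaks of a centre, regions of 10 or more held 17.9% on X, 11.2% over the autosomes together and 6.94% on IV to 16.7% on II. Regions of 5 or more held 30.8% of the centre's peaks (27.3 to 34.6%), 18.8% of those of the left part (15.9 to 22.1%) and 19.4% of those of the right part (16.4 to 22.9%). The share in the centre of X lay within that of autosome centres, 24.1 to 36.2%. The share over both outer parts of X, 19.1%, was below that of every autosome, 21.0 to 28.5%, and likewise in replicate 2 (21.7%, against 22.3 to 25.6%). In replicate 1 X was level with I, both at 27.0%, the lowest of the 6. The excess of the centre over the outer parts was 11.7 percentage points in the combined list and 7.29 in replicate 2, but 0.531 in replicate 1, and 6.82 without the regions of 20 or more peaks. Autosomes gave -1.94 to 13.8, -2.34 to 14.4, -7.80 to 6.03 and -2.88 to 10.2 points in the same order. X lay inside each of these ranges.

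**Figure D3:**
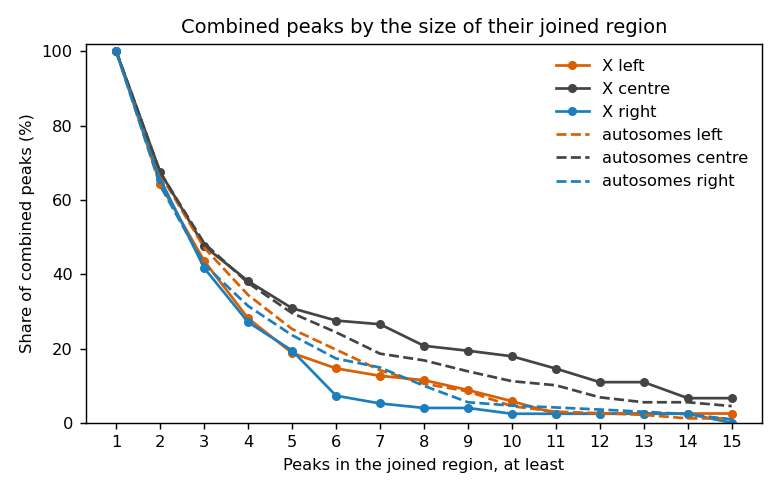
Share of combined peaks that lie in a joined region with at least the given number of peaks, for the left part, centre and right part of X (solid) and of the autosomes together (dashed). At 10 or more peaks X stands at 5.82, 17.9 and 2.43% in the left part, centre and right part, and the autosomes at 4.47, 11.2 and 4.63%.

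The largest regions are named here by their number of combined peaks. The longer of the 2 regions of 20 peaks ran from 12170568 to 12186363 (15796 bp) in the centre of X and had 19 peaks present in both replicates. It held 19 peaks in replicate 1 and 14 in replicate 2, and 64.1% of its bases were covered. The other region of 20 peaks, from 11471108 to 11483197 (12090 bp), held only 10 peaks in replicate 1 and 8 in replicate 2. There the replicate peaks were long, with medians of 778 bp in replicate 1 and 877 bp in replicate 2, the longest replicate 2 peak measured 3891 bp, and a single replicate 2 peak spanned 5 combined peaks. The region thus held fewer calls per replicate than the region of 11 combined peaks at 8015548, with 11 in replicate 1 and 10 in replicate 2.

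A region of 10 peaks, from 11461582 to 11470059, lay only 1048 bp before the shorter region of 20. The pair together made a stretch of 21616 bp with 30 combined peaks. The largest region of the left part, from 4136879 to 4147905 (11027 bp), held 15 combined peaks, all present in both replicates, and 11 peaks in each replicate. The largest of the right part, from 15273119 to 15281414 (8296 bp), held 14, again all present in both, and 12 in each replicate. The counts in the replicates thus kept closer to the combined count in these outer regions than in the shorter region of 20.

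The region from 6735414 to 6745847 had the highest coverage of the 10 largest, ties going to the longer, with 85.5% of its 10434 bp under 13 combined peaks. Each replicate divided it into 6 peaks, with median widths of 1573 bp in replicate 1 and 1707 bp in replicate 2. The region from 11030387 to 11036600 also held 13, in 6214 bp, with 10 peaks in replicate 1 and 9 in replicate 2 and none of the combined peaks wider than 476 bp. Regions of 11 ran from 6248659 to 6257026 and from 8015548 to 8022952, and one of 10 ran from 10765469 to 10772587. As many combined peaks, 10, also lay in shorter regions of the left part from 5208140 to 5214114 and from 3111323 to 3116987. Each of the 12 regions of 10 or more held at least 6 peaks of each replicate.

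**Figure D4:**
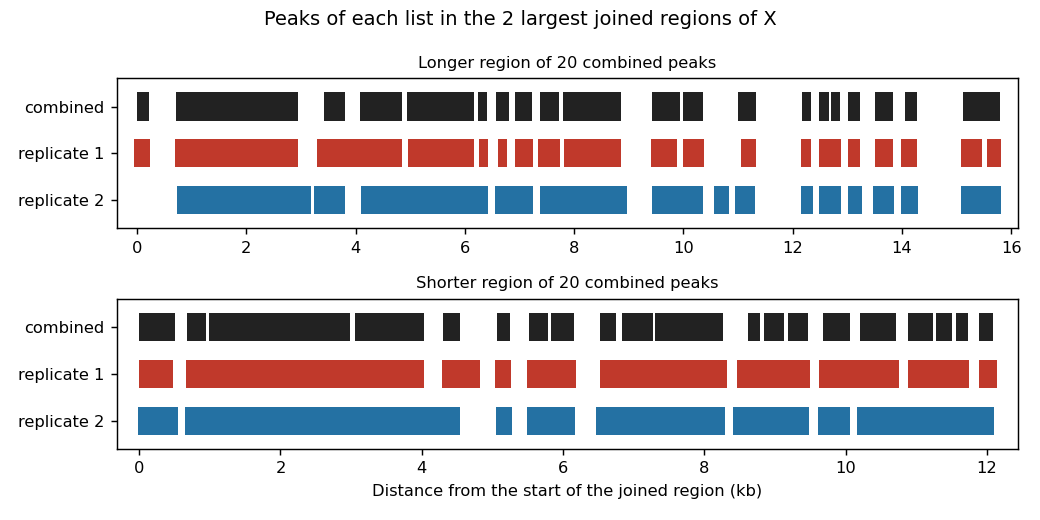
Peaks of the combined list and of each replicate in the 2 regions of 20 combined peaks, drawn as bars against the distance from the start of the region in kb. In the longer region the lists show 20, 19 and 14 bars, and in the shorter one 20, 10 and 8, where single replicate bars span several combined ones.

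Stretches without LET-418 peaks took up less of X than of most autosomes in the combined list. X had 14 gaps over 100 kb in the combined list, which took up 10.8% of its span, against 7.30% on III, 14.1% on II, 14.3% on I, 24.3% on IV and 36.5% on V. Its longest gap, 231 kb from 1603126 to 1833908 in the left part, held 2 replicate 1 peaks and 1 replicate 2 peak. The second, 212 kb from 3159841 to 3371380, held 20 replicate 1 peaks and 0 replicate 2 peaks, so it was a gap in only 2 of the 3 lists. Those 20 replicate 1 peaks had a median score of 4.415, against 6.46 for all X peaks of that replicate. The median was 4.59 for all replicate 1 peaks in the left part of X that had no replicate 2 partner. In replicate 1 the longest distance between neighbouring midpoints on X was 206967.5 bp, longer than on every autosome but V.

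The next 3 gaps lay in the centre of X. They ran from 6916607 to 7068008 (151 kb), from 12210347 to 12347964 (138 kb) and from 11801606 to 11937307 (136 kb). The gap at 12210347 held 1 replicate 1 peak and 0 replicate 2 peaks. In windows of 50 kb, 51 of 354 on X held no combined peak (14.4%, Wilson interval 11.1 to 18.4%), against 18.4% of the windows of all chromosomes and 19.3% of autosome windows. III at 6.55% was lower than X, and V at 31.2% was the highest. Empty windows made up 18.1% of the centre of X, 12.2% of its left part and 12.5% of its right part, with overlapping intervals. The centre of X thus held the largest regions and also more of the empty windows. In replicate 1, 5.37% of X windows were empty, against 4.98% on I, 1.45% on III and 18.2% on V. In replicate 2 it was 11.9% on X, against 11.6% on I, 5.45% on III and 28.1% on V, so that I as well as III was lower than X in both replicates, for I by less than the counting interval.

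Combined peaks on X were found in both replicates slightly more often than those of any autosome. An overlap of at least 1 bp with a peak of each replicate was seen for 1645 of 1780 X peaks (92.4%, 91.1 to 93.6%). The share was 90.4% over all chromosomes and 89.1 to 91.0% by autosome. Replicate 1 alone supported 119 and replicate 2 alone 16, and 0 lacked both. With a reciprocal overlap of 50% the share on X was 66.4%, inside the autosome range of 64.8 to 68.5%, and with only the better-scoring peaks of each list (its median and up) it was 81.8%, inside 77.7 to 82.5%. With midpoints within 500 bp X was again first, at 91.2%, against 87.8 to 90.3%. The rank of X thus depended on how an overlap was defined and on which peaks were kept.

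With the 1 bp overlap, the only one computed by part for combined peaks, X stood above the autosomes in its outer parts and not in its centre. In the centre of X 94.7% of combined peaks were present in both replicates (92.6 to 96.2%), inside the 92.6 to 95.3% of autosome centres. In the left part of X it was 91.3% (88.8 to 93.3%), above the 86.5 to 87.9% of the autosomes, and in the right part 91.1% (88.5 to 93.2%), above 84.9 to 90.0%. These intervals overlapped those of some autosomes, such as III in the left part (85.5 to 90.0%) and IV in the right part (85.8 to 93.1%). Over both outer parts the share was 91.2% on X (89.5 to 92.7%) and 85.7 to 88.1% by autosome.

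Of the replicate 1 peaks on X, 1779 of 3063 had a replicate 2 partner (58.1%, 56.3 to 59.8%), against 55.0% over all chromosomes and 51.7 to 55.9% by autosome. By part of X it was 57.3% in the left part, 62.5% in the centre and 54.8% in the right part. The centre of X exceeded its outer parts by 6.43 percentage points, whereas autosome centres exceeded theirs by 11.4 points on IV to 21.9 points on I. X stayed below all autosomes with 3 equal parts (6.37, against 12.6 to 20.8 points), with a reciprocal overlap of 50% (3.77, against 9.51 to 18.2), with midpoints within 500 bp (4.50, against 9.37 to 19.4) and with the better-scoring peaks of each list (4.77, against 7.45 to 19.2). The ranks of the single parts were less stable. With the 1 bp overlap X was above all autosomes in its left part (43.4 to 53.9%) and right part (46.4 to 52.7%) and inside their range in its centre (62.4 to 67.3%). With reciprocal overlap its right part was inside their range (45.1%, against 38.6 to 45.9%) and its centre below it (50.3%, against 53.8 to 55.5%). The centre was also below it with midpoints within 500 bp (65.5%, against 66.3 to 71.0%), and the right part was inside it with the better-scoring peaks (50.5%, against 44.6 to 53.1%).

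For replicate 2 the autosomes ran the other way and X did not. These shares were computed with the 1 bp overlap only, so their dependence on the definition of an overlap was not tested. Of the replicate 2 peaks on X, 1769 of 1913 had a replicate 1 partner (92.5%, 91.2 to 93.6%), against 91.2% over all chromosomes and 89.0 to 92.2% by autosome. The centre of X stood at 92.6% and its outer parts at 92.4%, a difference of 0.259 points. Every autosome had a lower share in its centre than in its outer parts, by -7.51 points on III to -4.90 points on IV. The centre of X was above all autosome centres, which gave 84.5 to 88.8%. Its outer parts were inside the autosome range of 92.0 to 94.7%, although the right part alone, at 91.0%, was below all autosomes (91.8 to 96.3%).

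**Figure D5:**
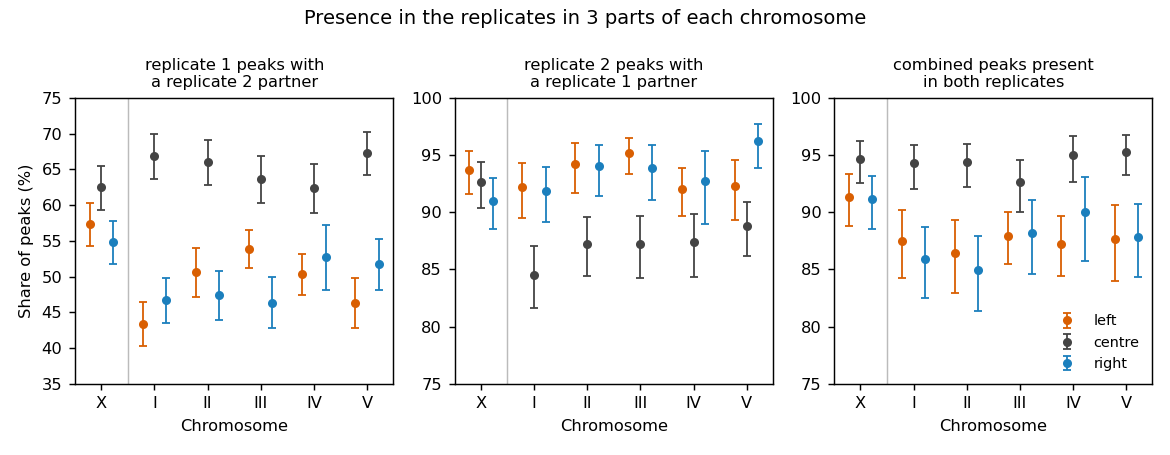
Share of replicate 1 peaks with a replicate 2 partner, of replicate 2 peaks with a replicate 1 partner, and of combined peaks present in both, in the left part, centre and right part of X and each autosome, with Wilson intervals; the vertical axes do not start at 0. The 3 parts of X lie closer together than those of any autosome for replicate 1, at 57.3, 62.5 and 54.8%.

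The number of calls per replicate follows from these partner shares where the numbers of matched peaks are nearly equal, and is given as another view of the same values. Replicate 1 had 1.61 peaks for each replicate 2 peak in the left part of X, 1.52 in the centre and 1.67 in the right part. Autosomes had 1.76 to 2.04 in their left parts, 1.28 to 1.40 in their centres and 1.76 to 1.93 in their right parts. X was therefore below all autosomes in both outer parts and above all of them in the centre. Over whole chromosomes the ratio differed little, at 1.60 on X and 1.62 to 1.68 on the autosomes.

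Sites called once in each replicate allowed the scores to be set side by side. On X there were 1504 such sites, and Spearman's rho of the 2 replicates' scores was 0.70 and Pearson's r 0.76, as a description across sites that share libraries. Autosomes had rho between 0.68 and 0.73, around X, and r between 0.77 and 0.81, above X. When all such sites of the genome were ranked by score within each replicate, sites in the centre of X stood 1.08 percentile points lower in replicate 1 than in replicate 2 (mean difference -1.08). Those of autosome centres had mean differences of -7.41 to -2.41 points. In the left part of X the mean difference was 2.33 points and in the right part 2.21 points. The left part of X lay inside the range of -0.243 to 4.74 points of the autosomes, and the right part inside 2.15 to 5.18 points.

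Replicate 1 peaks on X without a partner numbered 1284. They had a median width of 186 bp and a median score of 4.68, against 291 bp and 8.74 for the 1779 with one. Of those without a partner, 71.7% lay in the outer parts of X, against 65.9% of those with one. The corresponding shares on the autosomes were 75.3% and 60.7%. Replicate 2 peaks without a partner numbered 144 on X, and 67.4% of them lay in the outer parts, against 66.5% of those with a partner, while on the autosomes these shares were 42.8% and 61.7%.

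Peaks in large regions were wider and more often present in both replicates than single ones, on X as on the autosomes. The 411 X peaks in regions of 5 or more had a median width of 271 bp, the 760 in regions of 2 to 4 a median of 233 bp, and the 609 that stood alone a median of 206 bp. Presence in both replicates was 96.4% (94.1 to 97.8%), 93.2% (91.1 to 94.7%) and 88.8% (86.1 to 91.1%) in the same order. Autosome peaks gave 94.4%, 90.3% and 85.8%, each below X. A wider peak has more bases with which to meet a partner, and its part in the order was not tested.

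Scores varied little along X. The median combined score was 3.75 in the left part, 3.73 in the centre and 3.82 in the right part. Autosomes had 3.82 to 4.95 in their left parts, 3.60 to 3.76 in their centres and 3.82 to 4.95 in their right parts. The outer parts of X thus scored like its centre, and the centre of X like autosome centres. Over the whole of X the combined median was 3.76 and the upper quartile 4.96, both below all autosomes (3.93 to 4.26 and 5.27 to 5.66). This rank did not hold in replicate 1. X also had the lowest share of peaks at the ceiling of 9.03, 1.01%, against 1.68 to 4.51% on the autosomes. Of these 18 X peaks, 6 lay in the left part, 3 in the centre and 9 in the right part.

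The replicate lists bear on the same point with their own scores. In replicate 1 the X medians were 6.35 in the left part and 6.46 in the centre and in the right part, with autosomes at 6.03 to 8.26, 5.97 to 6.46 and 6.09 to 8.26 in the same order. In replicate 2 they were 4.925, 4.75 and 4.79, with autosomes at 4.55 to 6.55, 4.81 to 4.99 and 4.93 to 6.54. Over the whole of X the replicate 1 median of 6.46 lay inside the autosome range of 6.375 to 7.01. The upper quartile of 10.475 lay inside 9.99 to 11.24. In replicate 2 the median of 4.82 was below all autosomes (4.93 to 5.73). The upper quartile of 7.41 was level with the lowest autosome, I. Scores of different lists are not on a common scale and were not compared with each other.

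The cuts between the parts fell between single peaks and divided no joined region. The last peak before the left cut ran from 6134502 to 6134649 with a score of 3.10, and the first after it from 6151044 to 6151249 with a score of 4.29. At the right cut these were the peaks from 12458069 to 12458285 and from 12480347 to 12480718, with scores of 5.66 and 5.15. Each of the 4 stood alone and overlapped 1 peak in each replicate.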

How the data were processed

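Per the labels, 3 samples were made: 2 LET-418 ChIP replicates and 1 input, whose reads were not used here. BWA and the build ce10 are named per the submitters' processing notes. Per the file headers, peaks are on WormBase WS220 and the caller is MACS. Versions, the threshold, the use of the input and the way of combining replicates were not given in the sources used here. Every deposited peak has a score from the authors, whose scale no header names.

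From the deposited positions, peak numbers, widths, distances, regions joined under 1 kb, windows of 50 kb and overlaps of at least 1 bp were computed in Python 3.11.15 with SciPy 1.17.1, pandas 2.3.3 and NumPy 2.4.6. Plots were drawn in matplotlib 3.10.9. Density was taken over a span that starts at position 1 and stops where the last peak of the 3 lists stops, 17.7 Mb for X. Autosomes were cut at the same fractions of their span. Shares have Wilson intervals and densities exact Poisson intervals. The functions were tested on simulated lists. Named regions are the 10 joined regions of X with the most peaks (ties by length, which left out 2 of 4 regions of 10 peaks), the one with the most in each part, the 5 longest gaps, the 5 widest peaks, the extreme bins of about 1 Mb and the peaks beside the cuts. The dip in the middle of X was picked after the values were seen. The cut points, comparisons and rules were chosen with earlier results of these data known. The alternatives were the list of 1 replicate, a score threshold, peaks present in both replicates, covered bases, 3 equal parts, and other overlaps, joining distances and windows. No gene is named and no sequence shown, since a genome and annotation on WS220 were not used here.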

Additional observations from a re-analysis of the deposited data

How the results depend on the processing

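Of 63 recomputed values, 27 moved by less than the spread between the 2 replicates (or, for shares of overlap, stayed within the counting interval) and 36 moved by more. The density ratio of X to the autosomes was 1.09 to 1.13 with the list of 1 replicate, 1.15 among peaks present in both, 1.08 for covered bases and 0.996, on the other side of 1, at or above the median score. The left to centre ratio was 1.05 to 1.12 with 1 replicate, 0.974 for covered bases and 0.983 with 3 equal parts, both below 1. The right to centre ratio was 1.18 to 1.30 with 1 replicate and 1.05 for covered bases, and stayed above 1 in all settings run.

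Median width was 234 to 254 bp with 1 replicate and 259 bp at or above the median score. The median distance was 1451 to 1619 bp with 1 replicate, 1320 bp between edges and 5731 bp at or above the median score, where fewer peaks are left. The share in regions of several peaks was 67.4 to 67.7% with 1 replicate, 65.2% for peaks present in both, 48.9% at or above the median score, 53.5% joined under 500 bp and 75.8% joined under 2 kb. Empty windows made up 5.37 to 11.9% with 1 replicate, 29.4% at or above the median score, 38.5% with windows of 20 kb and 1.13% with windows of 100 kb, by construction of the windows; at 100 kb X was below all autosomes (1.46 to 13.5%).

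Presence in both replicates was 66.4% with a reciprocal overlap of 50% and 81.8% at or above the median score. The replicate 1 share with a partner was 47.95% in the left part, 50.3% in the centre and 45.1% in the right part with reciprocal overlap. With midpoints within 500 bp it was 62.6% in the left part and 59.3% in the right part. At or above the median score it was 58.8% in the centre and 50.5% in the right part. The highest over the lowest part density was 1.18 to 1.30 with 1 replicate and 1.11 with 3 equal parts. Where no construction is named, the cause was not tested. The excess of the centre of X in peaks of regions of 5 or more was 0.531 to 7.29 points with 1 replicate, 10.8 with 3 equal parts, 15.4 joined under 500 bp, 13.4 joined under 2 kb and 6.82 without the regions of 20 or more. X was above all autosomes with 3 equal parts and with both other joining distances, and inside their range in the other settings. The settings for the centre against the outer parts and for the highest over the lowest part were chosen after seeing the data. No paired analysis was possible because peak lists exist for 1 group alone. Depth is unknown.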

Other observations

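The extra calls of each replicate lay at different distances from the combined peaks of X. The 144 replicate 2 peaks without a replicate 1 partner were a median of 420 bp from the nearest combined peak on X and 665 bp on the autosomes. The 1284 replicate 1 peaks without a replicate 2 partner were a median of 1671 bp away on X and 1527 bp on the autosomes. Single replicate 2 peaks also spanned several combined peaks more often on X (135 of 1913, 7.06%) than on any autosome (5.44 to 6.75%). For replicate 1 this share was 4.51% on X, inside the autosome range of 3.60 to 4.52%.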
